A study of Homo sapiens with 14 samples.

Results

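The genes described here are 38 genes of the unfolded protein response and of protein folding in the endoplasmic reticulum (ER). They were named by symbol, and each was represented by its transcript row with the highest mean abundance over 14 RNA-sequencing libraries. All 38 were found among 22410 genes in the table, and all 38 passed the filter on low counts that left 16418 genes tested. The libraries come from 293 Flip-In T-REx cells. These derive from human embryonic kidney and have a defined site for inserting a transgene. Each of 7 groups had 2 libraries. SA1Q cells carried SNAP-ADAR1Q, a fusion of the SNAP tag to the ADAR1 deaminase with the label's substitution E406Q, and were also sampled with a guide RNA (SA1Q+gRNA). SA2Q cells carried SNAP-ADAR2Q, the ADAR2 counterpart with E403Q, and were likewise sampled with a guide (SA2Q+gRNA). SA1+gRNA and SA2+gRNA cells carried SNAP-ADAR1 and SNAP-ADAR2 and were sampled with a guide only. The ctrl cells carried an empty vector and had no guide. SNAP-ADARs bind a modified guide RNA covalently and convert adenosine to inosine in the transcript that the guide pairs with, and the series was made to find editing away from the target. The sources used here do not give the guide's target, how the transgenes were induced or how many clones made up a line. Each enzyme was present in its own line, so enzyme and line cannot be told apart.

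The ER folds secreted and membrane proteins. When unfolded proteins accumulate there, the sensors IRE1 (gene ERN1), PERK (EIF2AK3) and ATF6 signal to the nucleus. IRE1 splices XBP1 mRNA, cleaved ATF6 enters the nucleus as a transcription factor, and PERK slows translation while favouring that of ATF4. XBP1 and ATF6 raise chaperones, disulfide isomerases and genes of ER-associated degradation (ERAD), which returns misfolded proteins to the cytosol for destruction. Kidney-derived 293 cells are not specialised for secretion.

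ATF6 and XBP1 are known to act through the ER stress elements ERSE (CCAAT, 9 bases of any kind, CCACG) and ERSE-II (ATTGG, 1 base of any kind, CCACG). The 250 bases before the RefSeq start (GRCh38.p14) are given for the 5 genes that differed between the SA1Q and SA2Q lines, 5′ to 3′ on the gene's strand. Capitals mark each exact match to either element on either strand.
HERPUD1 (chr16:56931892-56932141, plus strand): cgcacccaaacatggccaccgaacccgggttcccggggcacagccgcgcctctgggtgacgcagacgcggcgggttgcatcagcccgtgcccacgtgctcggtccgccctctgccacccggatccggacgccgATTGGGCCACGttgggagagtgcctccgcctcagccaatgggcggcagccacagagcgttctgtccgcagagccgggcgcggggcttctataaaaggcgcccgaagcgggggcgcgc
XBP1 (chr22:28800570-28800819, minus strand): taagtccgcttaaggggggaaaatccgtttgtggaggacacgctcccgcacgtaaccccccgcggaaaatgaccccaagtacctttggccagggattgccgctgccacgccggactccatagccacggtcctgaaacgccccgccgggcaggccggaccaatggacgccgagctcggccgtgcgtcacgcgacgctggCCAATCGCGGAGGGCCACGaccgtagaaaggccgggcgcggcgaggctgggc
HSPA5 (chr9:125241344-125241593, minus strand): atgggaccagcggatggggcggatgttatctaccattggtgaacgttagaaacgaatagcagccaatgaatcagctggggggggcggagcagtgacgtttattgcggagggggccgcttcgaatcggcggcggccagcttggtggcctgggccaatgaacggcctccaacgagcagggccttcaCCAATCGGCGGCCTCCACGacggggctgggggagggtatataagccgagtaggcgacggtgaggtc
HSP90B1 (chr12:103930160-103930409, plus strand): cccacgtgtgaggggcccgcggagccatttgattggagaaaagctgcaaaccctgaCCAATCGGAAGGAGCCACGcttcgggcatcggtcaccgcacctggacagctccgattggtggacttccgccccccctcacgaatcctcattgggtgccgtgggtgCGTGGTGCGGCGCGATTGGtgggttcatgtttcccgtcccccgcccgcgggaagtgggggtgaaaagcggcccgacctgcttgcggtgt
PDIA4 (chr7:149028491-149028740, minus strand): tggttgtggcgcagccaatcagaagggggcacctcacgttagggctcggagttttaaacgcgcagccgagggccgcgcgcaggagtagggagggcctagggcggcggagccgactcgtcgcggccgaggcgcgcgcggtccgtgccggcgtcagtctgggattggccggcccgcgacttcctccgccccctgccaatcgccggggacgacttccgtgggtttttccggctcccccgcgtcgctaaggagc
HERPUD1 held an ERSE-II, and XBP1 and HSPA5 an ERSE each on the gene's strand. HSP90B1 held an ERSE on each strand, and PDIA4 held no exact match in this window. Counted from the RefSeq start, where -1 is the last base before it, the matches lay at -117 to -107 in HERPUD1, -52 to -34 in XBP1, -66 to -48 in HSPA5, and -194 to -176 and -89 to -71 in HSP90B1.

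Libraries held total counts of 43.0 to 130.1 M, and members had counts of 192 to 139304 per library. Both upper values are from SA1+gRNA replicate 2, of whose nonzero counts 100% were even, against 47.7% to 48.7% in each of the other 13 libraries. With its counts halved, the totals reached 68.2 M and the members' counts 71333, and the number of members called was the same in each comparison. The first principal component (25.6% of variance) set ctrl replicate 1 (-20.6) and SA1Q+gRNA replicate 1 (-27.9) apart from the others, which lay between -2.6 and 12.4. The second (18.3%) set the SA1Q line, at 10.6 to 15.3, apart from all other libraries, at -1.0 or less. ADAR stood at 1085.1 to 1602.9 CPM in the 6 SA1Q and SA1 libraries, against 297.1 to 340.1 CPM in the other 8, and ADARB1 at 939.5 to 1163.1 CPM in the 6 SA2Q and SA2 libraries, against 25.5 to 37.2 CPM in the other 8. These rows may sum transgene and endogenous transcripts, and both go with the labels. CPM here is the TMM-scaled count relative to the library's total over the genes tested. FPKM is the deposited value that also accounts for transcript length, used wherever genes are compared with each other. Of the 7 markers of the 293 line, KRT8 (231.3 to 349.3 CPM) and VIM (957.8 to 1285.2 CPM) were the most abundant in every library. KRT18, KRT19, NEFL and INA lay between 49.7 and 204.0 CPM, and NEFM reached only 1.78 CPM. From the blood cell list, LCP1 stood at 110.2 to 163.5 CPM. Markers of secretory cells summed to at most 0.772 CPM, INS reached 1 count at most, and of fibroblast markers only COL1A1 exceeded 1.12 CPM.

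Levels of the members ran from high to low, without large differences between libraries. The median member stood at 20.9 FPKM, against 5.72 FPKM for all genes tested, and 7 members exceeded 100 FPKM, as did 4.3% of the genes tested. A further 13 members lay under 10 FPKM. HSP90B1 and CALR led, and the sensor ERN1 was lowest. The ratio of the highest to the lowest library in CPM ran from 1.17 for EDEM1 to 1.74 for DERL3. For 6 members (EIF2AK3, DNAJB9, PDIA3, PDIA6, SYVN1 and DERL3) a gene on the other strand overlaps, and their values are uncertain to that extent. Fewer expressing cells and less RNA per cell cannot be told apart in these bulk libraries.

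**Figure D1:**
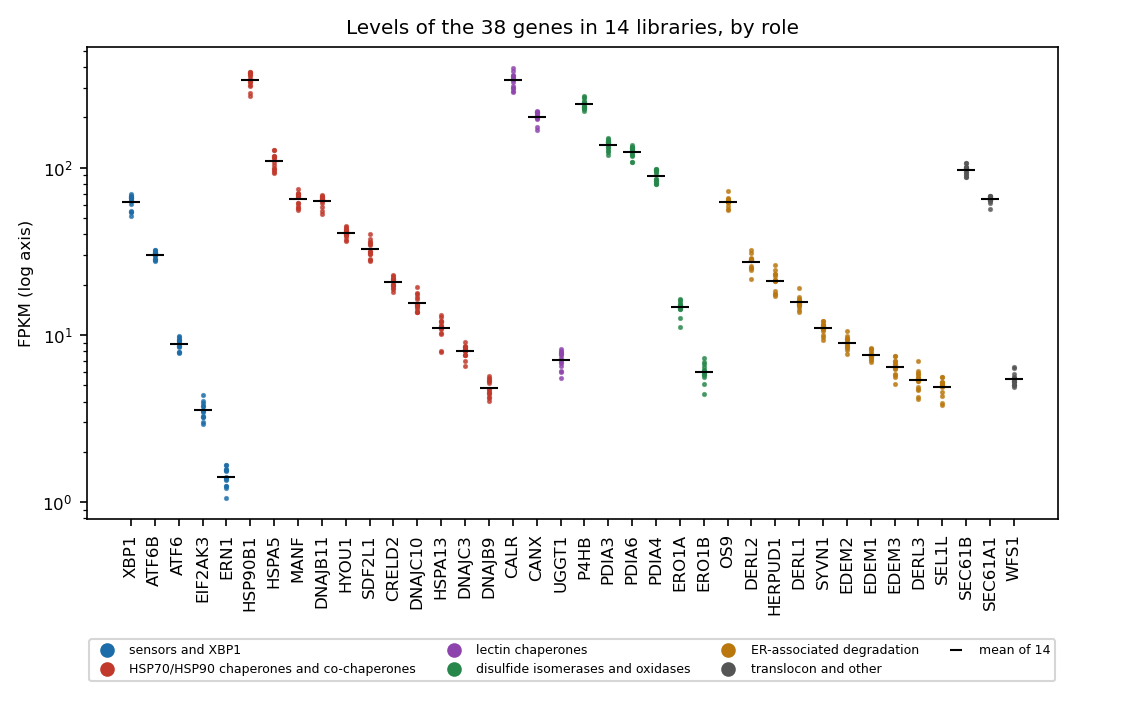
FPKM of each of the 38 genes (log axis) in the 14 libraries (points) with the mean of 14 (black bar), ordered by role and level. HSP90B1 (335.9 FPKM) and CALR (332.7 FPKM) are highest and ERN1 (1.42 FPKM) is lowest, and the points of each gene lie close together.

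Of the comparisons made, the SA1Q line against the SA2Q line had the most members called. It sets the 4 libraries of SA1Q and SA1Q+gRNA against the 4 of SA2Q and SA2Q+gRNA, and asks whether these lines differ whatever the guide. Genes were called at an adjusted p under 0.05 by edgeR's quasi-likelihood test with Benjamini-Hochberg adjustment over all 16418 genes, and adjusted p-values of genes are from that test. Of 38 members, 5 were lower in the SA1Q line, 13.2%, where 2.75% of all genes tested were called, 1.72% as lower. No member was higher, where 1.03% of all genes were. The 5 were HERPUD1, XBP1, HSPA5, HSP90B1 and PDIA4, with mean levels 14.6% (PDIA4) to 20.5% (HERPUD1) below those of the SA2Q line. With the called genes, 12 members (31.6%) had an unadjusted p under 0.05, as did 16.8% of all genes, and of the 7 not called 6 lay below 0. In all, 28 of 38 changes lay below 0, with a median log2 change of -0.06 against 0.00 over all genes. The 4 SA1Q-line libraries lay below all 4 SA2Q-line libraries for 10 members, where 6.22% of all genes tested did so, and above them for 0 members, where 5.63% did.

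The count of 5 rests on few libraries. Without SA2Q replicate 2 it was 0 (0.506% of all genes were called), and it was 1 (HERPUD1) without SA1Q replicate 1 or 2, SA2Q replicate 1, or SA2Q+gRNA replicate 1 or 2 (0.602% to 0.951% of genes). It was 3 without either SA1+gRNA replicate (1.9% and 1.92%) and 8 without either ctrl replicate (4.24% and 4.23%). Leaving out ctrl replicate 1 and SA1Q+gRNA replicate 1 together gave 13 (34.2% of members), where 11.8% of all genes were called. The split of 10 members above 0 and 28 below became 16 and 22 without SA2Q+gRNA replicate 1, and 7 and 31 without SA2Q+gRNA replicate 2.

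**Figure D2:**
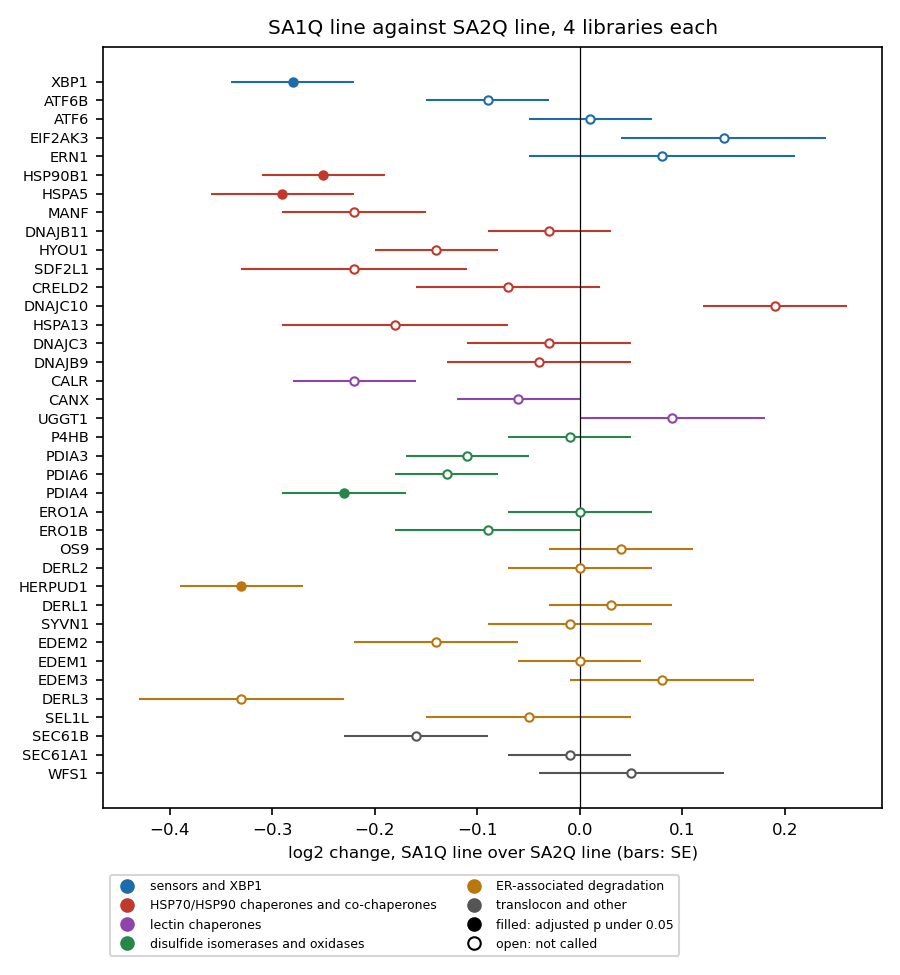
Log2 change of each of the 38 genes, SA1Q line over SA2Q line (4 libraries each), with its standard error as a bar and colours for roles. The 5 filled points (adjusted p under 0.05) all lie below 0, as do 28 of the 38 genes.

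Among the sensors and XBP1, XBP1 was the member called. XBP1 encodes the transcription factor made by IRE1-dependent splicing (chr22:29190548-29196560, minus strand, on hg19 like all gene coordinates here). It stood at 102.4 and 98.7 CPM in SA1Q, 111.0 and 103.1 in SA1Q+gRNA, 121.3 and 123.0 in SA2Q, 127.3 and 131.8 in SA2Q+gRNA, 128.2 and 129.7 in SA1+gRNA, 126.9 and 136.3 in SA2+gRNA, and 133.5 and 115.5 CPM in ctrl. The 4 SA1Q-line libraries were the lowest of all 14. XBP1 averaged 103.8 ± 5.2 CPM in the SA1Q line and 125.8 ± 4.7 CPM in the SA2Q line (SD, n = 4 each), a log2 change of -0.28 (SE 0.06, adjusted p = 0.022). The files hold an XBP1 row of 1820 and another of 1794 nucleotides, which differ by the 26 bases that IRE1 removes. Their counts differed by 0 to 0.142%, so the deposited counts do not separate the spliced from the unspliced form.

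None of the 4 sensors was called. ERN1 had 5.19 and 6.61 CPM in SA1Q, 6.10 and 7.00 in SA1Q+gRNA, 5.92 and 5.74 in SA2Q, 6.72 and 5.19 in SA2Q+gRNA, 6.01 and 7.15 in SA1+gRNA, 5.32 and 6.66 in SA2+gRNA, and 4.59 and 6.44 in ctrl. Its replicates spread as widely as its groups. EIF2AK3 had 18.0 and 18.4 CPM in SA1Q, 15.6 and 21.2 in SA1Q+gRNA, 17.1 and 15.8 in SA2Q, 17.5 and 15.9 in SA2Q+gRNA, 19.2 and 17.3 in SA1+gRNA, 17.7 and 16.4 in SA2+gRNA, and 14.8 and 19.6 in ctrl. EIF2AK3 overlaps an antisense gene, and its SA1Q+gRNA and ctrl pairs each span most of its range. ATF6 had 77.1 and 74.2 CPM in SA1Q, 65.7 and 74.7 in SA1Q+gRNA, 71.0 and 71.3 in SA2Q, 77.9 and 69.4 in SA2Q+gRNA, 74.6 and 74.2 in SA1+gRNA, 62.5 and 69.1 in SA2+gRNA, and 64.1 and 66.5 in ctrl. The log2 changes between the lines were 0.08 for ERN1, 0.14 for EIF2AK3, 0.01 for ATF6 and -0.09 for ATF6B, the ATF6 relative, and all 4 had overlapping libraries. By FPKM XBP1 was the highest of this role (62.4) and ERN1 the lowest.

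The chaperones HSPA5 and HSP90B1 were called lower among 11 HSP70 and HSP90 chaperones and co-chaperones. HSPA5 encodes BiP, the main ER HSP70, which holds the sensors inactive (chr9:127997127-128003666, minus strand). It stood at 399.4 and 416.7 CPM in SA1Q, 406.4 and 404.7 in SA1Q+gRNA, 487.0 and 473.5 in SA2Q, 535.0 and 495.9 in SA2Q+gRNA, 489.5 and 545.6 in SA1+gRNA, 396.3 and 494.5 in SA2+gRNA, and 445.7 and 450.1 CPM in ctrl. The SA1Q line lay below every library but SA2+gRNA replicate 1, and every SA2Q-line library lay above ctrl. HSPA5 averaged 406.8 ± 7.3 CPM in the SA1Q line and 497.9 ± 26 CPM in the SA2Q line (SD, n = 4 each), a log2 change of -0.29 (SE 0.07, adjusted p = 0.032).

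HSP90B1 encodes GRP94, the ER HSP90 (chr12:104324112-104341708, plus strand), and it was the highest member by FPKM. It stood at 970.0 and 932.8 CPM in SA1Q, 851.4 and 933.6 in SA1Q+gRNA, 1124.0 and 1043.0 in SA2Q, 1137.8 and 1090.9 in SA2Q+gRNA, 1118.7 and 1137.1 in SA1+gRNA, 982.4 and 1104.5 in SA2+gRNA, and 864.1 and 997.0 CPM in ctrl. The SA1Q line overlapped ctrl but not the SA2Q line, whose libraries all lay above ctrl. The log2 change between the lines was -0.25 (SE 0.06, adjusted p = 0.038), with 922.0 ± 50 CPM in the SA1Q line and 1098.9 ± 42 CPM in the SA2Q line (SD, n = 4 each).

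DNAJB9, a BiP co-chaperone that restrains IRE1, had 14 and 12.6 CPM in SA1Q, 11.7 and 12.5 in SA1Q+gRNA, 12 and 11.9 in SA2Q, 13.9 and 14.4 in SA2Q+gRNA, 14.5 and 15.6 in SA1+gRNA, 10.8 and 15.1 in SA2+gRNA, and 12.4 and 11.2 in ctrl. Its lines overlapped (log2 change -0.04, adjusted p = 0.89), and it overlaps THAP5 on the other strand. It was also the lowest of the role at 4.84 FPKM. The trophic ER factor MANF lay at 56.2 to 60.8 CPM in the SA1Q line, wholly below the SA2Q line at 66.5 to 70.3 CPM, and missed the threshold (-0.22, adjusted p = 0.13). DNAJC10, a co-chaperone that reduces disulfides, was the only member of the 11 above 0, at 0.19 (adjusted p = 0.17). The other 6 lay between -0.22 and -0.03. They were HYOU1, an HSP70 relative that exchanges nucleotide on BiP, the HSP70 relative HSPA13, the BiP co-chaperones DNAJB11 and DNAJC3, and the stress-induced ER genes SDF2L1 and CRELD2.

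None of the 3 lectin chaperone genes was called. CALR encodes calreticulin, which binds glycoproteins in the ER lumen. It ran from 563.9 to 637.3 CPM in the SA1Q line, below 673.7 to 714.7 CPM in the SA2Q line, and missed the threshold (log2 change -0.22, SE 0.06, adjusted p = 0.075). CANX, the membrane-bound calnexin, and UGGT1, which marks unfolded glycoproteins for another round, differed by -0.06 and 0.09 with overlapping libraries. CALR was the highest of the role by FPKM and UGGT1 (7.10) the lowest.

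Among 6 disulfide isomerases and oxidases, PDIA4 was called. It encodes the isomerase ERp72 (chr7:148700154-148725782, minus strand). It stood at 247.2 and 261.4 CPM in SA1Q, 261.3 and 258.1 in SA1Q+gRNA, 298.2 and 303.3 in SA2Q, 305.2 and 297.0 in SA2Q+gRNA, 285.2 and 313.9 in SA1+gRNA, 267.9 and 311.0 in SA2+gRNA, and 254.0 and 263.7 CPM in ctrl. The SA1Q line overlapped ctrl, and every SA2Q-line library lay above both the SA1Q line and ctrl. The lines averaged 257.0 ± 6.7 CPM in SA1Q and 300.9 ± 3.9 CPM in SA2Q (SD, n = 4 each; log2 change -0.23, SE 0.06, adjusted p = 0.049). PDIA6 also did not overlap (300.1 to 331.4 CPM in the SA1Q line, 344.5 to 350.7 in the SA2Q line) but was not called (-0.13, adjusted p = 0.24). P4HB, the classical isomerase and the highest of the role at 240.0 FPKM, differed by -0.01. PDIA3 (-0.11) and the oxidases ERO1A (0.00) and ERO1B (-0.09), which reoxidise isomerases, had overlapping libraries, and ERO1B was lowest of the role at 6.02 FPKM.

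Of 10 ERAD genes, HERPUD1 was called. It encodes HERP, a membrane protein of the degradation complex (chr16:56966002-56977793, plus strand). It stood at 36.6 and 34.7 CPM in SA1Q, 37.2 and 35.3 in SA1Q+gRNA, 43.1 and 43.5 in SA2Q, 47.3 and 47.2 in SA2Q+gRNA, 53.2 and 50.1 in SA1+gRNA, 42.7 and 46.1 in SA2+gRNA, and 43.4 and 42.5 CPM in ctrl, on counts of 1446 to 6070. The 4 SA1Q-line libraries were again the lowest of the 14, a pattern seen in 2 of 38 members (5.26%, XBP1 and HERPUD1) and in 1.94% of all genes tested, while 0 members were highest there (1.67% of genes). HERPUD1 averaged 36.0 ± 1.1 CPM in the SA1Q line and 45.3 ± 2.3 CPM in the SA2Q line (SD, n = 4 each), a log2 change of -0.33 (SE 0.06, adjusted p = 0.0075). Without SA2Q replicate 2 the log2 change was -0.33 and its adjusted p 0.058.

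**Figure D3:**
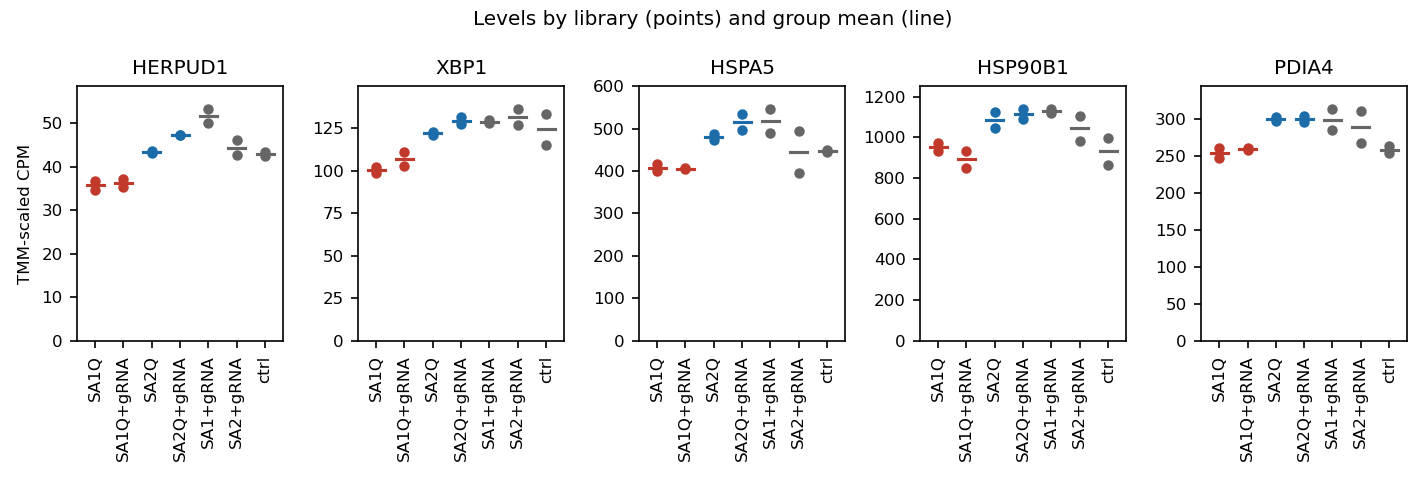
TMM-scaled CPM (axes from 0) of the 5 genes called between the SA1Q and SA2Q lines, by group, with each library as a point and the group mean as a line; SA1Q groups are red, SA2Q groups blue and the others grey. For HERPUD1 and XBP1 the 4 red points lie below all others. For HSP90B1 and PDIA4 the red points overlap ctrl and the blue points lie above ctrl. For HSPA5 the red points lie below ctrl and the blue points above it.

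DERL3, a Derlin of the ERAD channel, had the same log2 change as HERPUD1 (-0.33, SE 0.10) and missed the threshold (adjusted p = 0.083). It ran from 13.8 to 16.9 CPM in the SA1Q line and from 18.1 to 20.3 CPM in the SA2Q line, and it overlaps SMARCB1 on the other strand, so reads of that gene may enter it. The ubiquitin ligase SYVN1 and its partner SEL1L differed by -0.01 and -0.05. The mannosidase-like genes EDEM1, EDEM2 and EDEM3 differed by 0.00, -0.14 and 0.08. DERL1, DERL2 and the lectin gene OS9 differed by 0.03, 0.00 and 0.04, and all 8 had overlapping libraries. OS9 was the highest ERAD gene at 62.6 FPKM and SEL1L the lowest at 4.89 FPKM.

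None of the remaining 3 members was called. SEC61B, a translocon subunit and the highest of them at 97.1 FPKM, stood at 51.2 to 58.5 CPM in the SA1Q line and 58.8 to 63.6 CPM in the SA2Q line (log2 change -0.16, adjusted p = 0.28). The translocon pore SEC61A1 and the ER calcium-regulating protein WFS1 (5.45 FPKM, the lowest) differed by -0.01 and 0.05 with overlapping libraries.

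Set against SA1+gRNA cells, SA1Q+gRNA cells had HERPUD1 called lower. Here the enzymes differ by the substitution and both groups had a guide. HERPUD1 averaged 36.3 ± 1.3 CPM in SA1Q+gRNA and 51.7 ± 2.2 CPM in SA1+gRNA (SD, n = 2 each), a log2 change of -0.51 (SE 0.08, adjusted p = 0.0098). It was the only member called, 1 of 38 (2.63%), where 0.512% of all genes were called lower and 0.962% were called. In all, 30 of 38 members lay below 0, with a median of -0.12 against 0.00 over all genes. Libraries did not overlap for 20 members that were lower, where 21.2% of all genes did so, and for 1 that was higher (DNAJB11), where 20.6% did. An unadjusted p under 0.05 was found for 13 members (34.2%) and for 17.4% of all genes. The largest changes after HERPUD1 among these members were ERO1B (-0.36, adjusted p = 0.18), HSPA5 (-0.35, 0.086), HSP90B1 (-0.34, 0.073) and HSPA13 (-0.34, 0.25). Without SA1+gRNA replicate 1 HERPUD1 missed the threshold (-0.47, adjusted p = 0.16) and 0 members were called. Without ctrl replicate 1 the count was 2 (1.96% of all genes), without ctrl replicate 2 it was 3 (2%), and without SA1Q+gRNA replicate 2 it was 8 (21.1% of members), where 12.4% of all genes were called. This comparison and that of the lines share the SA1Q+gRNA libraries. Against ctrl, SA1+gRNA had 32 of 38 members above 0 (median 0.16) and SA1Q+gRNA had 20 (median 0.01). The reference group of this comparison was thus itself above ctrl for most members, and SA1Q+gRNA was near ctrl by the median. SA2Q+gRNA against SA2+gRNA had 0 members called by edgeR, where 0.0122% of genes were, with 2 members (5.26%) at an unadjusted p under 0.05, against 7.86% of genes, and 0 called by DESeq2 or limma.

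Over all 7 groups together, HERPUD1 was the only member called (adjusted p = 0.014), 2.63% of members against 1.57% of all genes. It missed the threshold without SA1+gRNA replicate 1 (adjusted p = 0.065) and without SA1Q replicate 2 (0.073). The count was 2 without SA1Q+gRNA replicate 1 (2.73% of genes called), 3 without SA1Q+gRNA replicate 2 (6.29%) or ctrl replicate 1 (2.65%), and 4 without ctrl replicate 2 (2.78%).

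Against ctrl, no member was called by edgeR in any of the 6 other groups, which share the ctrl libraries. For SA1Q, where 2.8% of all genes were called, 9 members (23.7%) had an unadjusted p under 0.05, near the 21.2% of all genes. DESeq2 called 2 members (5.26%, HERPUD1 and XBP1) and 6.54% of genes, and limma 1 (2.63%, XBP1) and 3.24% of genes. XBP1 and HERPUD1 were lower in SA1Q by log2 changes of -0.31 (adjusted p = 0.061) and -0.27 (0.084), while HSP90B1 (0.03) and PDIA4 (-0.03) were near 0. The count for SA1Q was 1 (XBP1) without either SA1Q+gRNA replicate (6.88% and 6.92% of genes) and 2 (EDEM2 and XBP1) without ctrl replicate 2 (4.88%). In the other 5 groups edgeR called 1.04% of all genes for SA1Q+gRNA, 0.0853% for SA2Q, 0.067% for SA2Q+gRNA, 0.0426% for SA1+gRNA and 0.104% for SA2+gRNA. An unadjusted p under 0.05 was found for 5 members (13.2%) in SA1Q+gRNA, where 13.9% of all genes had one, and for 4 (10.5%) in SA2Q, where 8.86% had. It was found for 8 members (21.1%) in SA2Q+gRNA, where 10.1% of genes had one, for 11 (28.9%) in SA1+gRNA, where 10.7% had, and for 0 in SA2+gRNA, where 10.2% had. DESeq2 and limma called 0 in each of these 5 comparisons.

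In SA1+gRNA cells, 32 of 38 members lay above ctrl, with a median log2 change of 0.16 against 0.00 over all genes. The shift was seen beyond the members, in the lists of other ER and pathway genes described below. Above 0 were 25 of 26 translocon and glycosylation genes (median 0.12) and 21 of 25 further folding enzymes (0.11). Also above 0 were 18 of 22 ER to Golgi transport genes (0.07) and 16 of 21 further ERAD genes (0.06). The PERK and ATF4 arm had 15 of 18 (0.07), and ATF6 processing, CREB3 family and ER-phagy genes 12 of 19 (0.04). Over all genes tested, 51.1% lay above 0 in SA1+gRNA. Some of these lists had similar counts in SA1Q, set against the same ctrl libraries. There, 21 of 26 translocon and glycosylation genes (median 0.09) and 17 of 25 folding enzymes (0.11) lay above 0. So did 15 of 21 ERAD genes (0.07) and 14 of 22 transport genes (0.03). In SA1Q the PERK and ATF4 arm had 6 of 18 (-0.27), and the ATF6 processing list 9 of 19 (-0.03). Both SA1+gRNA libraries lay above both ctrl libraries for 19 members, where 18.1% of all genes tested did so, and below for 0 members, where 18% did. HERPUD1 (0.27, adjusted p = 0.30), HSP90B1 (0.28, 0.31) and DNAJB9 (0.35, 0.39) were among those with the smallest unadjusted p. Leaving out ctrl replicate 1 gave a median of 0.14, and leaving out ctrl replicate 2 gave 0.21. It was 0.15 without SA1+gRNA replicate 2, whose counts were all even. It was 0.10 with an offset for transcript length and GC content. The median was 0.05 in SA1Q, with 21 of 38 members above 0, and 0.01 in SA1Q+gRNA, with 20. It was 0.06 for SA2Q cells without a guide (30 members above 0) and 0.09 with it (29), and 0.03 for SA2+gRNA cells (24). For SA2+gRNA it was 0.11 (35 above 0) without its replicate 1, -0.05 (13 above 0) without its replicate 2 and 0.06 without ctrl replicate 2. Without ctrl replicate 2 it was 0.10 for SA2Q and 0.15 for SA2Q+gRNA, and without SA2Q+gRNA replicate 1 it was 0.06 for SA2Q+gRNA. Without ctrl replicate 1 it was 0.01 for SA1Q and -0.03 for SA1Q+gRNA, without SA1Q replicate 2 it was 0.03 for SA1Q, and with the offset it was -0.01 for SA1Q. For SA1Q+gRNA it was 0.04 without ctrl replicate 2 and -0.03 without its own replicate 2.

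**Figure D4:**
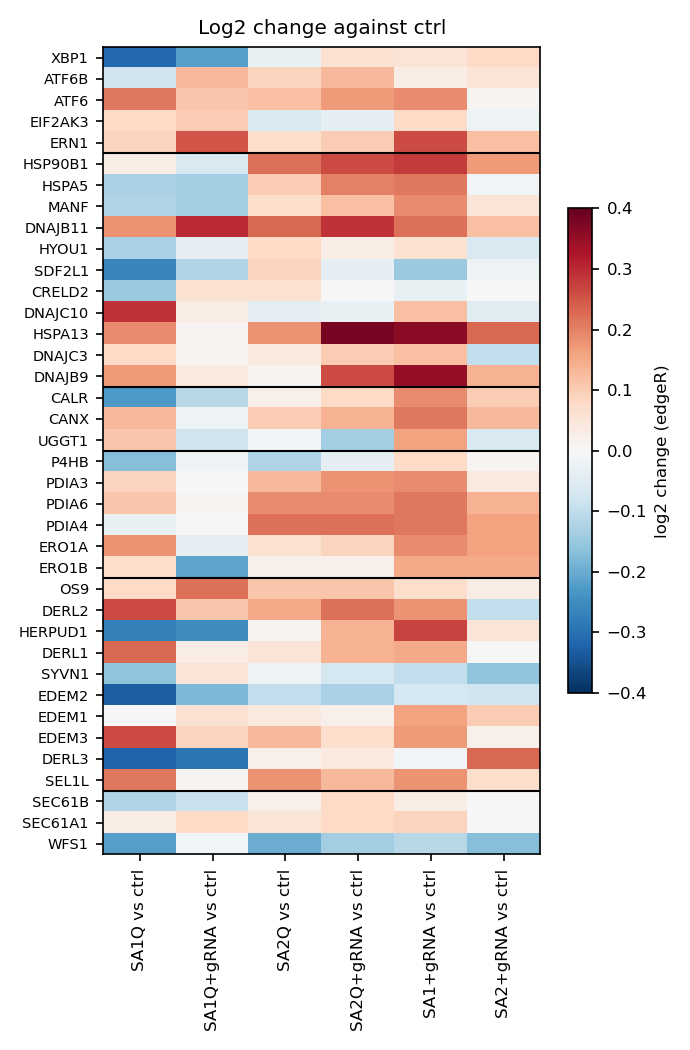
Log2 change against ctrl of the 38 genes (rows, by role, roles split by lines) in 6 groups (columns), with red higher and blue lower than ctrl. XBP1 and HERPUD1 are blue in the SA1Q and SA1Q+gRNA columns, and most genes are red in the SA1+gRNA column; no value was called.

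Addition of the guide gave 0 called members by edgeR in either line, where 0 of all genes were called in SA1Q+gRNA against SA1Q and 0 in SA2Q+gRNA against SA2Q. In the SA1Q line 4 members (10.5%) had an unadjusted p under 0.05, where 12.2% of all genes had, and in the SA2Q line 0, where 1.77% had, and DESeq2 and limma called 0. HERPUD1 differed by 0.02 in the SA1Q line and 0.13 in the SA2Q line, and XBP1 by 0.09 and 0.08. The difference between these guide changes had 0 members called of 38, as of all genes, with 1 member (2.63%, DERL1) at an unadjusted p under 0.05, against 5.66% of genes. Without SA1Q+gRNA replicate 2, 3 members (DNAJC10, EDEM3 and ERO1A) were called in SA1Q+gRNA against SA1Q, 7.89% of members, where 12.6% of all genes were called.

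The elements shown above were searched on both strands in RefSeq windows of 250 bases before to 50 after each start. Windows were present for 35 of 38 members, all but PDIA3, DERL1 and DERL3. ERSE was found in 8 of them (22.9%) and in 0.0916% of 27305 genes with windows, and ERSE-II in 3 (8.57%) and in 0.0696%. The core of the unfolded protein response element, TGACGTG, was found in 3 (8.57%) and in 2.4%. Of the 12870 tested genes with windows, 0.148% held ERSE, 0.132% ERSE-II and 3.18% TGACGTG. The members were listed as genes of this response and the shares come from sequence alone, so they are no result of the libraries. HYOU1 carried overlapping ERSE-II and TGACGTG matches. ERSE was in XBP1, HSPA5, HSP90B1, CRELD2, CALR, CANX, PDIA6 and ERO1B, and ERSE-II in HERPUD1, HYOU1 and SDF2L1.

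The 11 members with either element had a median log2 change between the lines of -0.22, with all 11 below 0 and 4 called, and the 24 without one had -0.01, with 15 below 0 and 1 called. These medians are a description with no test, and the 11 were also more abundant, at a median of 62.4 FPKM against 11.0. In SA1Q against ctrl the medians were -0.13 and 0.08. They were -0.07 and 0.09 without SA1Q replicate 1, -0.19 and 0.07 without SA1Q replicate 2, -0.09 and 0.02 with the length and GC offset, and, on leaving out a ctrl library, -0.09 and 0.04 (replicate 1) or -0.12 and 0.12 (replicate 2). With the length and GC offset the line medians were -0.17 and -0.03. For the other groups against ctrl, the medians were -0.11 and 0.03 in SA1Q+gRNA, 0.08 and 0.06 in SA2Q, and 0.08 and 0.09 in SA2Q+gRNA. They were 0.19 and 0.16 in SA1+gRNA, and 0.08 and 0.02 in SA2+gRNA. A match is a run of letters and not evidence of binding.

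**Figure D5:**
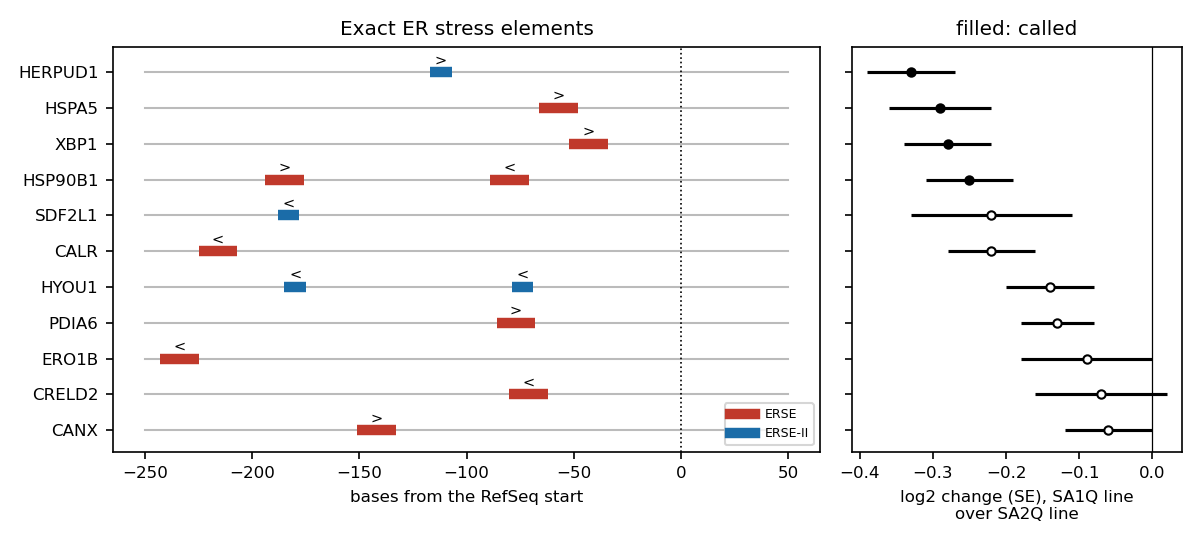
Left, positions in bases from the RefSeq start of exact ERSE (red) and ERSE-II (blue) matches in 11 genes, with > for the gene's strand and < for the other; grey lines are the window of 250 bases before to 50 after, and for CANX the first of its windows is drawn. Right, log2 change (SE) of the SA1Q line over the SA2Q line, filled where called: all 11 lie below 0.

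Among other genes of the pathway, lists were counted as for the members. Of all genes tested, 2.75% were called between the lines and 0.962% in SA1Q+gRNA against SA1+gRNA. Against ctrl, 2.8% were called in SA1Q and 1.04% in SA1Q+gRNA. Of 18 PERK and ATF4 arm genes, the SA1Q line had CEBPG called higher (0.30, adjusted p = 0.0075) and ASNS, asparagine synthetase (-0.40, 0.0088), and CHAC1, a glutathione-degrading enzyme (-0.59, 0.023), lower against the SA2Q line, with a median of -0.12. ASNS averaged 133.0 ± 16 CPM in SA1Q and 124.1 ± 12 CPM in SA1Q+gRNA, 166.5 ± 8.2 in SA2Q and 172.8 ± 11 in SA2Q+gRNA (SD, n = 2 each). Against SA1+gRNA, SA1Q+gRNA had ASNS (-0.81, adjusted p = 0.0012), CHAC1 (-1.05, 0.011) and DDIT4 (-1.05, 0.03) lower among the 18. Against ctrl, SA1Q had 1 of the 18 called higher and 3 lower, CHAC1 (-1.43, adjusted p = 0.0018), ASNS (-0.43, 0.036) and CEBPB (-0.72, 0.045), and SA1Q+gRNA had CHAC1 (-1.03, 0.011) and ASNS (-0.53, 0.02) lower. CHAC1 averaged 2.64 ± 0.15 CPM in SA1Q and 3.52 ± 0.70 CPM in SA1Q+gRNA, against 7.15 ± 1 CPM in ctrl (SD, n = 2 each). Of 26 translocon and glycosylation genes, SSR2 (-0.27, adjusted p = 0.041) was called between the lines. In SA1Q against ctrl, SEC11C (0.36, adjusted p = 0.03) and TRAM1 (0.45, 0.031) of these 26 were higher, and SEC11C (0.43, 0.018) also in SA1Q+gRNA against ctrl. Of 21 further ERAD genes, FAF1 (0.22, adjusted p = 0.033) was called higher between the lines, and ERLIN2 (0.34, 0.047) was higher in SA1Q than in ctrl. Of 25 further folding enzymes, FKBP10 was lower in SA1Q (-0.35, adjusted p = 0.027) and DNAJC1 higher in SA1Q+gRNA (0.38, 0.046), each against ctrl, and 0 were called between the lines. In SA1Q against ctrl, 1 call was 4% of these folding enzymes and 4.76% of the further ERAD genes, not far from 2.8% of all genes. None of 22 ER to Golgi transport genes and 19 genes of ATF6 processing, CREB3 family and ER-phagy was called between the lines by edgeR.

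Markers of cell identity also moved with the lines. KRT19 (-0.35, adjusted p = 0.0051) and KRT8 (-0.36, 0.01), and from the blood cell list LCP1 (-0.40, 0.0019) and CD68 (-0.74, 0.0021), were lower in the SA1Q line than in the SA2Q line. Of the 7 markers of the 293 line 3 lay above 0 between the lines, up to 0.23 and not called, and INA, a neuronal intermediate filament gene, was higher in SA1Q (0.47, adjusted p = 0.016) and in SA1Q+gRNA (0.45, 0.028) than in ctrl, where KRT19 was lower in both (-0.46, 0.0084 and -0.46, 0.012) and KRT8 in SA1Q (-0.48, 0.017). The 5 blood cell markers summed to 122.4 to 141.6 CPM in the SA1Q line and 168.6 to 181.3 CPM in the SA2Q line, nearly all of it LCP1 and CD68, while the defining PTPRC reached 0.406 CPM at most and CD3E and HBB were at or near 0. The 7 markers of the 293 line summed to 1606.9 to 1961.6 CPM in the SA1Q line and 1708.9 to 1798.6 CPM in the SA2Q line. Against ctrl, the fibroblast marker COL1A1 was also lower in SA1Q (-0.64, adjusted p = 0.023). NEFL, of the 293 line list, was higher in SA2+gRNA than in ctrl (0.75, adjusted p = 0.048), a group outside both Q lines. The part of any of these in the members' changes was not tested.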

How the data were processed

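Poly(A)+ RNA of 14 libraries was sequenced paired-end from stranded libraries, per the labels' protocols. The submitters' processing notes name Trim Galore, STAR 2.4.2a and hg19. The sources used here name no counting tool or strand setting, so genes with antisense neighbours are uncertain. The deposited counts are whole numbers per transcript, all even in SA1+gRNA replicate 2. The deposited FPKM values are scaled to transcript size and library total, per the file headers. The deposited FPM column, a score for fragments relative to the library total, chose each gene's row (the highest mean).

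Of 45595 accessions, 98.6% were named. Entries without a name held 0.81% of counts and were left out, as were transcripts under 200 nucleotides. Names came from RefSeq GRCh38.p14, then GENCODE. Coordinates are hg19, with 1 added to starts. Counts were fitted with edgeR 4.0.16 in R 4.3.3 (TMM, filterByExpr with minimum count 10, quasi-likelihood, all 14 libraries, no covariate, 7 residual degrees of freedom). The biological coefficient of variation was 8.7%. P-values measure the spread between these libraries. DESeq2 1.42.0, limma 3.58.1 on log2(FPKM + 1), scaling, filters, a replicate block and left-out libraries were alternatives. On simulated data for the line comparison (16163 genes), 99 of 100 changes of 1.5-fold and 100 of 100 of 2-fold were called, with 8 false calls. The simulated counts had no libraries set apart, and changes as small as those of the called members were not simulated. The recovery of such changes is therefore not known from it. By rule, values in every library are given for called members and for HSPA5, HSP90B1, XBP1, ERN1, EIF2AK3, ATF6, DNAJB9 and HERPUD1, and other members by range, with the highest and lowest FPKM of each role; of other lists, up to 3 called genes are named. The members and lists were chosen with earlier results of these data known. One listed blood cell marker is not reported here.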

Additional observations from a re-analysis of the deposited data

How the results depend on the processing

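Of 299 recomputed counts of called members, 257 stayed within 1.5 times of the first, and the same log2 sign was kept by the genes called. A count of 0 that stayed 0 was taken as within that range, and most comparisons had 0 members called in the first fit. The share therefore says little about the comparisons that had members called. Of the 38 members, 17 changed sign between the lines in at least 1 of 23 settings, none of them called, and their reported changes were at most 0.09 in size. In the other 11 comparisons with a direction 11 to 27 members did. Shares of all genes called in the same setting are in parentheses. The cause of the moves was not tested. In SA1Q against ctrl the count of 0 became 2 with DESeq2 (6.54%), 1 with limma on FPKM (3.24%), 2 with the length and GC offset chosen after seeing the data (5.07%) and 1 without both libraries that stood apart (7.32%), and 0 to 2 on leaving out a library. With that offset SA1Q+gRNA against ctrl gave 2 (6.07%). Without both libraries, SA2Q+gRNA and SA1+gRNA against ctrl gave 1 each (5.11% and 2.3%). SA1Q+gRNA against SA1Q gave 0 to 3 on leaving out a library. SA1Q+gRNA against SA1+gRNA (1) gave 4 with DESeq2 (3.57%), 3 with no filter on low counts (1.75%), 3 without both libraries (1.32%), 5 with the offset (4.12%), and 0 to 8 on leaving out a library. The SA1Q line against the SA2Q line (5) gave 13 without both libraries (11.8%) and 0 to 8 on leaving out a library. The test over 7 groups (1) gave 6 with DESeq2 (8.28%), 2 with limma (1.43%), 5 with no filter (3.28%), 10 without both libraries (11%), 7 with the offset (8.06%), and 0 to 4 on leaving out a library. HERPUD1 between the lines passed in 9 of 9 other settings (adjusted p 2.5e-05 to 0.014) and 13 of 14 fits without a library (0.0055 to 0.058), HSPA5 and XBP1 in 9 of 9 and 8 of 14, HSP90B1 in 7 of 9 and 5 of 14, and PDIA4 in 6 of 9 and 5 of 14. With a left-out library, a group of 1 is assumed to vary like the others. Differences between replicates did not go the same way in all groups. Of 21 pairs of groups, 5 had deviations correlated over 0.1, the range being -0.497 to 0.531, the highest for ctrl with SA1Q+gRNA. These correlations cannot exclude that some groups were paired. With the replicate number as a block, the line count was 3 (HERPUD1, HSPA5 and XBP1, where 1.85% of genes were called), and the other counts were the same as without it. With 2 libraries per group, small changes can be missed.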
